A study of Homo sapiens with 2 samples.

Results

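*IRS4* encodes an insulin receptor substrate, and its mRNA carried 6 of the 2054 YBX1 binding sites in the list that was made from this PAR-CLIP experiment. *IRS1* and *IRS2*, which encode the other substrates of this family, and *INSR*, *IGF1R* and *IGF2R*, which encode the receptors for insulin and the insulin-like growth factors, carried 0 sites each. Of all 20046 protein-coding genes, 6.81% carried at least 1 site. Among these 1366 genes, 1062 had 1 site and 12, with *IRS4* among them, had at least 6. The 6 genes named above were chosen with results from this list known. *IRS4* was picked for its 6 sites and for high expression in the kidney line used, which this list does not measure. These numbers are therefore a description and were not tested. A site was taken as belonging to a gene when its midpoint lay between the ends of that gene in GENCODE (release 44, hg38) on the gene's own strand. By this rule, 6 sites lay in the 6 genes, which is 0.292% of the list.

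PAR-CLIP crosslinks a protein to the RNA that it touches in living cells, recovers the protein with its RNA and sequences the short fragments that stay attached. The experiment was done in HEK293, a human embryonic kidney line, in 2 replicates of 1 group, with no control group. The cells were grown with 4-thiouridine, a uridine analog that is built into new RNA and crosslinks under long-wavelength UV light. By the methods, the line was T-REx HEK293 Flp-In with a stable FLAG/HA-tagged YBX1 in excess of the cells' own, and the tag was pulled down with anti-FLAG. The sample labels instead name an antibody against YBX1, D2A11. RNA was trimmed with RNase T1, which cuts single-stranded RNA after G. Both replicates were pooled into 1 list of positions without read counts, so values per replicate and their error are lacking, the depth behind a site is unknown, and sites could not be ranked by strength. HEK293 markers could not be examined, because the list holds no expression values. For the same reason, a gene without a site is not shown to be unbound, nor to be expressed.

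YBX1 is a cold-shock domain protein that coats mRNAs in the cytoplasm and takes part in their packaging, translation and stability. Insulin and the insulin-like growth factors bind receptor tyrosine kinases at the cell surface, which then phosphorylate the insulin receptor substrates on tyrosines. The phosphorylated substrates act as docking platforms, on which PI3-kinase and the adaptor GRB2 assemble and start the AKT and the RAS to MAP kinase branches. IRS1 and IRS2 are made in many tissues, whereas IRS4 is found in few, and it was originally described as a phosphoprotein of HEK293 cells.

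The sequences of all 6 *IRS4* sites are given because the results below turn on their base content and their ends. They were read from hg38 on the RNA strand (minus strand of chromosome X), 5′ to 3′ in the order of the mRNA, with T for U. Capitals mark 5 tetramers rich in C and A, which were searched on the RNA strand only. The list held CACC, besides it CAUC (spelled with T in the sequences), further CAAC, with which the tetramer AACA can overlap, and finally AACU.
Site 1, chrX:108733898-108733927, coding sequence: ctcctacttctctctaccaaacccttttcg
Site 2, chrX:108733337-108733360, coding sequence: gccacttcctccccttcccctcag
Site 3, chrX:108721810-108721837, 3′UTR: catttcCAACAttttaaaggcagAACTg
Site 4, chrX:108721492-108721512, 3′UTR: tacttatcaatcaatattctg
Site 5, chrX:108721184-108721203, 3′UTR: caaacctCATCatatcacag
Site 6, chrX:108720912-108720931, 3′UTR: ctaAACTAACTtttccaaag
Each of these 6 sequences occurs at 1 place in the genome. Over the whole list, 167 of the 2050 sites whose sequence was searched occur at more than 1 place.

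The *IRS4* gene (ENSG00000133124.12) runs from 108719946 to 108736563 on chromosome X. Its reference transcript (MANE Select) has 2 exons, and its mature mRNA of 6563 nt consists of a 5′UTR of 219 nt, a coding sequence of 3771 nt including the stop codon and a 3′UTR of 2573 nt. Exon 1 (108732579 to 108736563) held sites 1 and 2, and exon 2 (108719946 to 108722523) held sites 3 to 6. The intron between them, which at 10055 nt is longer than the mature mRNA, held 0 sites. The other annotated transcript keeps this intron as part of a 3′UTR of 12622 nt. In that transcript too, 4 sites lay in the 3′UTR and 2 in the coding sequence, and the 4 lay in the stretch that is exon 2 of the reference transcript. The antisense gene *IRS4-AS1* overlaps the start of *IRS4* by 553 nt, and 0 of the 6 sites lay in the overlap.

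The first site began at 40.2% of the length of the mRNA, and the stretch before it held 0 sites. Site 1 began at nt 2418 of the coding sequence and site 2 at nt 2985. In the 3′UTR, counted from the stop codon, site 3 covered nt 682 to 709, site 4 nt 1007 to 1027, site 5 nt 1316 to 1335 and site 6 nt 1588 to 1607. From the end of site 6, 966 nt remained to the end of the mRNA, and they held 0 sites. The 3′UTR held 4 of the 6 sites (66.7%, Wilson 95% interval 30 to 90.3, counting error only) in 39.2% of the mRNA's length, a density of 1.55 sites per kb. Of the 3 *IRS4* sites wider than the median of the list, 1 lay in the 3′UTR (33.3%) and the other two in the coding sequence. The coding sequence held 2 sites in 57.5% of the length (0.530 per kb), and the 5′UTR held 0.

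**Figure D1:**
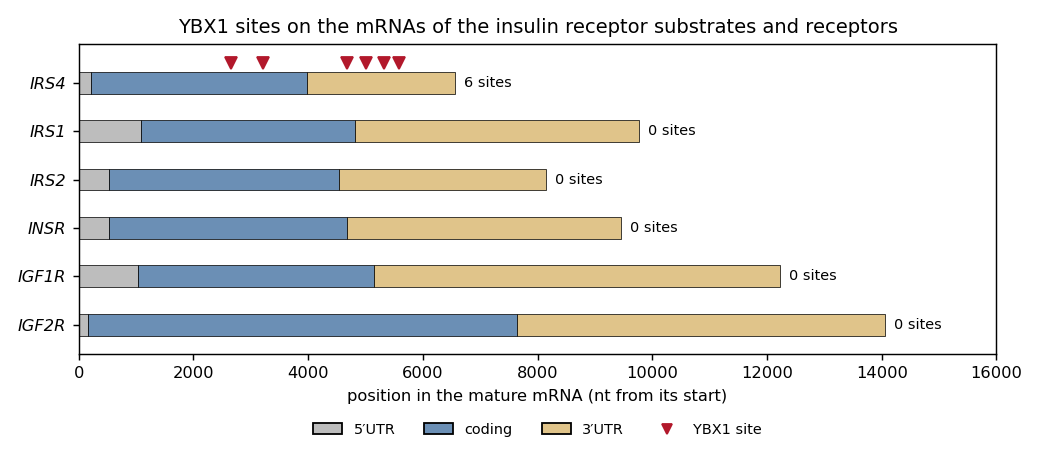
The mature reference mRNA of each of the 6 genes is drawn to scale in nt from its start, with its 5′UTR, coding sequence and 3′UTR, and triangles mark the midpoints of YBX1 sites. All 6 sites lie on *IRS4*, 2 in its coding sequence and 4 in its 3′UTR, although its mRNA of 6563 nt is the shortest of the 6.

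The authors' annotation placed these sites differently. Their gene column names *IRS4* for all 6 sites. Their annotation column, made with HOMER, calls sites 1 and 2 exon and sites 3 to 6 intergenic, and 0 of the 6 sites are 3′UTR in it. Sites 3 to 6 were therefore 4 of the 205 sites that are intergenic in the authors' annotation, of which 54 lay in a 3′UTR of GENCODE on their own strand. Among the 46 protein-coding genes with at least 4 sites in exons of their reference transcript, 3 had any site that the authors' annotation calls intergenic. *IRS4* had 4, and G3BP1, which encodes a core protein of stress granules, had 3.

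The 4 sites in the 3′UTR were spaced at similar distances. From the first base of one site to the first base of the next there were 325 nt (site 3 to 4), 309 nt (site 4 to 5) and 272 nt (site 5 to 6), a mean of 302 ± 27.2 nt (SD over 3 distances of 1 mRNA). Sites 1 and 2 began 567 nt apart, and 1468 nt of mature mRNA separated the beginnings of sites 2 and 3. The coefficient of variation of the distances in the 3′UTR, SD over mean, was 0.0900. In 21 genes with at least 4 sites in the 3′UTR of the reference transcript, it was lowest for *IRS4*, and the range was 0.0900 to 1.58 with a median of 0.816. DESI2, a member of a small family of desumoylating peptidases, came next with 0.134 (3 distances between 498 and 652 nt). ALG11 and UTP14C are counted as 2 genes here although they share their sites. The genes had between 4 and 10 sites in the 3′UTR, so the coefficients rest on unlike numbers of distances. With only 3 distances, as in *IRS4* and DESI2, the SD is poorly determined. The spacing was measured after the positions had been seen, and with 3 distances it is a description without a test.

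**Figure D2:**
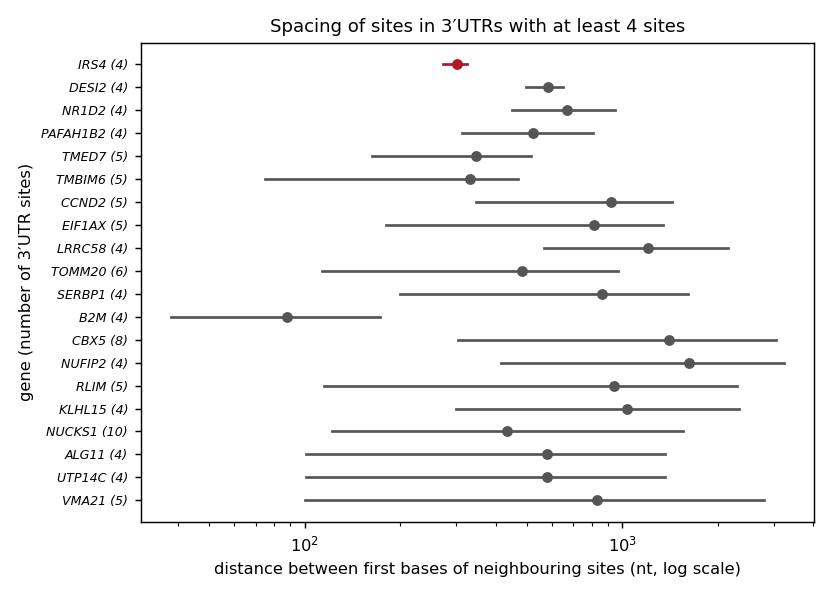
Distances between the first bases of neighbouring sites, in nt on a log axis, for 20 of the 21 genes with at least 4 sites in 1 3′UTR, where the point is the mean, the line runs over the range, and the number of sites stands in parentheses. The line of *IRS4*, in red, runs from 272 to 325 nt and is the shortest on this axis.

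The sites bore the ends that RNase T1 leaves. All 6 ended in G, against 87.6% of the 2044 other sites with a sequence, and 5 of the 6 began after a G, against 79.2% of the others. Site 4 was the exception and began after a U. How the listed positions are to be read had been checked by G at the ends of all sites, so these shares are not independent of that reading. Sites 1, 5 and 6 were each exactly 1 fragment between 2 cuts, without a G inside. Site 3, with 4 G in 28 nt, touched 4 such fragments. The sites were 20 to 30 nt wide with a median of 22.5 nt, and the median of the list was 22 nt. Each site held between 4 (site 5) and 11 (site 1) U, the base at which 4-thiouridine can crosslink, with a mean of 7.33 ± 2.50 (SD, n = 6 sites) against 7.06 ± 2.47 in the other sites.

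The 2 coding sites and the 4 sites in the 3′UTR differed in C and U together, and in A. They were alike in A and C together (means of 63.3% and 62.4%) and in U alone (30.8% and 30.4%). The coding sites were pyrimidine tracts, in which C and U made up 80.0% of site 1 and 83.3% of site 2. These values were above those of 97.5% and 98.8% of the other sites in the list. In the 3′UTR, C and U made up 50% of site 3, 61.9% of site 4 and 55.0% each of sites 5 and 6, so the sites of the 2 regions did not overlap in this value. A made up 16.7% or less of the coding sites and 33.3% or more of the 3′UTR sites. With 2 and 4 sites this difference was not tested. The other sites of the list were not split by region, and the percentages above are against all of them together. Whether the difference is particular to *IRS4* or common to coding and 3′UTR sites is therefore not known. Over all 6 sites the mean of C and U was 64.2 ± 14.1%, and over the other sites it was 59.8 ± 10.8% (SD over sites).

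A and C together, the bases that YBX1 sites are rich in, made up 60.0% of site 1, 66.7% of site 2, 57.1% of site 3, 52.4% of site 4, 75.0% of site 5 and 65.0% of site 6. Site 5 was above 89.6% of the other sites and site 4 above 21.1%. The *IRS4* sites thus ran from 52.4% to 75.0%, within the 10% to 90.9% of the other sites. Windows as wide as the site, 100 nt to either side of it in its exon, held 48.3%, 39.6%, 46.4%, 54.8%, 47.5% and 37.5% in the same order. A and C were thus higher in 5 of the 6 sites than in their windows, and site 4 was lower by 2.38 percentage points. The mean difference was 17.01 ± 12.4 points (SD, n = 6 sites), and over 1461 other sites with such a window it was 12.3 ± 13.6 points, with a higher value in the site for 81.0% of them. With each site lengthened by 10 nt at both ends the order turned, with 3.57 ± 5.23 points over the *IRS4* sites and 5.89 ± 10.7 points over 1430 other sites. Sites of 1 mRNA are not replicates of a condition, and the SDs describe the spread over sites only.

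RNase T1 ends change this comparison, because a fragment without G has more of every other base. A second kind of window was therefore cut where RNase T1 would cut, with a G before it, a G as its last base and the same number of G inside as in the site. Such windows existed for 4 *IRS4* sites. Site 2 was 8.33 points below its window, site 3 was 13.1 points above the mean of its 9 windows, and sites 5 and 6 were 15 and 5 points above the same single window. The mean difference was 6.19 ± 10.6 points (SD, n = 4 sites), against 4.28 ± 13.1 points over 683 other sites.

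**Figure D3:**
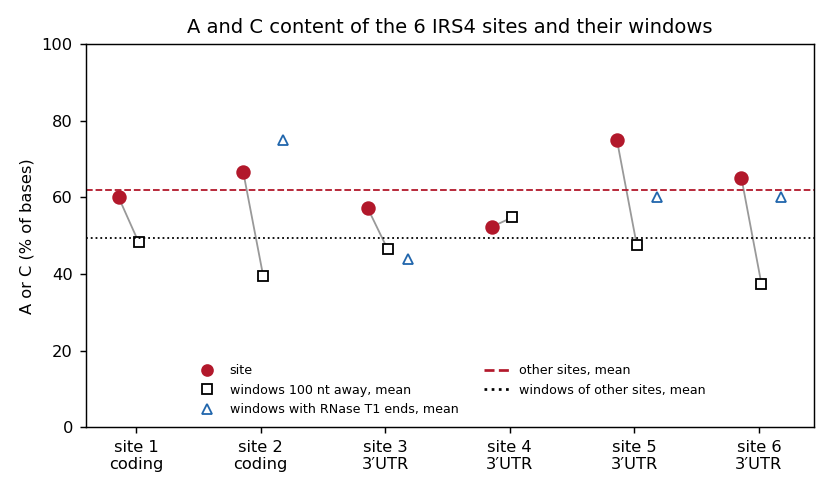
Share of A or C in percent of bases for each *IRS4* site (filled circles), the mean of its windows 100 nt away (squares) and the mean of its windows with RNase T1 ends (triangles, 4 sites). The dashed and dotted lines give the means of the 1461 other sites with such windows (61.8%) and of these windows (49.5%), and 5 of the 6 circles lie above their squares.

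Of the tetramers, AACU was present in 2 *IRS4* sites, with 1 copy in site 3 and 2 adjoining copies in site 6. Site 3 also held CAAC and, overlapping with it, the tetramer AACA. Site 5 held CAUC, and 0 of the sites held CACC. At least 1 of the 5 tetramers stood in 3 *IRS4* sites, against 70.4% of the other sites. In the other sites the shares were 28.2% for AACU, 26.6% for CAAC, 30.9% for AACA, 25.0% for CAUC and 14.6% for CACC. Both coding sites and site 4 held 0 of the 5 tetramers. A match is a match of letters and does not show where YBX1 touched the RNA.

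The other 5 genes had 0 sites in exons or introns, and the same number was found with any overlap counted, with strand ignored and with the authors' gene names. *IRS1* (chromosome 2, 226731312 to 226799820) has a mature mRNA of 9771 nt with a 3′UTR of 4960 nt, and *IRS2* (chromosome 13, 109752695 to 109786583) has 8156 nt with a 3′UTR of 3609 nt. Among the receptors, the mRNA of *INSR*, the insulin receptor (chromosome 19, 7112255 to 7294414), measures 9463 nt. That of *IGF1R*, the receptor for IGF1 and IGF2 (chromosome 15, 98648539 to 98964530), measures 12235 nt. That of *IGF2R* (chromosome 6, 159969082 to 160113507), which takes up IGF2 and sorts lysosomal enzymes, measures 14061 nt. All 5 mRNAs are longer than that of *IRS4*, and so are their 3′UTRs. Since 6.81% of all protein-coding genes had a site, 0 was also the number of sites in most genes.

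The mRNAs without a site held RNase T1 fragments of a readable length as well. Counting fragments between 2 cuts of RNase T1 that are 17 to 30 nt long and hold at least 1 U, the mRNA of *IRS4* had 30 (4.57 per kb). Per kb, *IRS1* had 5.12, *INSR* 4.23, *IGF1R* 4.17 and *IGF2R* 3.56, and *IRS2*, with 27.9% G the richest in G, had 1.96. A and C made up a median of 60.0% of these fragments in *IRS4*, and between 51.0% (*IRS2*) and 60.0% (*IGF1R*) in the other genes. At least 1 of the 5 tetramers was present in 43.3% of the *IRS4* fragments and in 31.2% (*IRS2*) to 66.0% (*IGF2R*) of those of the other genes. In fragments per kb and in tetramers *IRS4* lay within the range of the other 5 mRNAs, and its median of A and C equaled the highest of theirs. Only sites 1, 5 and 6 of *IRS4* were exactly 1 fragment between 2 cuts, so these counts do not describe all of its sites. The levels of these mRNAs in the cells were not measured in this experiment. The part of these levels, or of the fragments, in the number of sites was not tested.

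YBX1 sites were also found in other genes of the pathway, with fewer sites per gene than in *IRS4*, which had been picked for its number. A list of 86 genes of insulin and IGF signaling, drawn up from textbook knowledge with earlier results of these data known, held 18 genes with at least 1 site. Without the 6 genes above, 17 of 80 had a site (21.2%, against 6.81% of all protein-coding genes), with 25 sites in all. No test was made of this share, and the 20046 genes include genes that HEK293 cells may not express. The next highest numbers in the list were 3 sites each in NRAS, a RAS GTPase, and PPP2CA, the catalytic subunit of the phosphatase PP2A.

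By role, the ligands (INS, IGF1 and IGF2) had a site in 0 of 3 genes and the receptors, with INSRR included, in 0 of 4. Of all protein-coding genes, 6.81% had a site. A count of 0 in so few genes, here or below, is therefore not read as a trait of a role. Of the 14 substrates and adaptors 4 had a site. Next to *IRS4* these were CRKL with 2 sites in its 3′UTR, CRK with 1 in its coding sequence, both adaptors of the same family, and PTPN11, a tyrosine phosphatase that docks on insulin receptor substrates, with 1 in its 3′UTR. The sequence of the PTPN11 site occurs at 3 places in the genome. GRB2, GAB1, SHC1, SOS1 and SOS2, which link receptors and substrates to RAS, had 0.

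In the PI3-kinase and AKT branch 7 of 29 genes had a site. AKT1 had 1 in the coding sequence of its reference transcript, whereas AKT2, the AKT isoform best known for its role in insulin-stimulated glucose uptake, had 0. RHEB, the GTPase that activates mTORC1, and SLC2A1, the glucose transporter GLUT1, had 1 site each in the 3′UTR, and the sequences of these occur at 3 and 2 places. GSK3A, a kinase that restrains glycogen synthesis, had 1 in the coding sequence of its reference transcript, which is 3′UTR in another annotated transcript, and a further gene overlaps there. RICTOR, a subunit of mTORC2, and FOXO3, a transcription factor that AKT inactivates, had 1 each in an intron. None of the 6 genes of PI3-kinase subunits (PIK3CA, PIK3CB, PIK3CD, PIK3R1, PIK3R2 and PIK3R3) had a site. With 6.81% of all protein-coding genes carrying a site, this is not read as a trait of the subunits.

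In the RAS and MAP kinase branch 3 of 10 genes had a site, among them NRAS with 3 in its 3′UTR. The sequence of 1 of the NRAS sites occurs more than once. Among the inhibitors 2 of 15 had a site, PPP2CA with 3 in its 3′UTR, at places where annotated genes overlap, and CBL, a ubiquitin ligase, with 1 in the coding sequence of its reference transcript, at a place that is 3′UTR in another. PTPN1 and the SOCS genes of the list had 0. Of 8 IGF-binding proteins and their partner subunit, IGFBP3 had 1 site, with a sequence that occurs at 3 places. This site lay in an intron of the reference transcript, at a place that is 3′UTR in another annotated transcript. Of the IGF2 mRNA-binding proteins, IGF2BP1 had 2 sites in its 3′UTR, and IGF2BP2 and IGF2BP3 had 0.

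**Figure D4:**
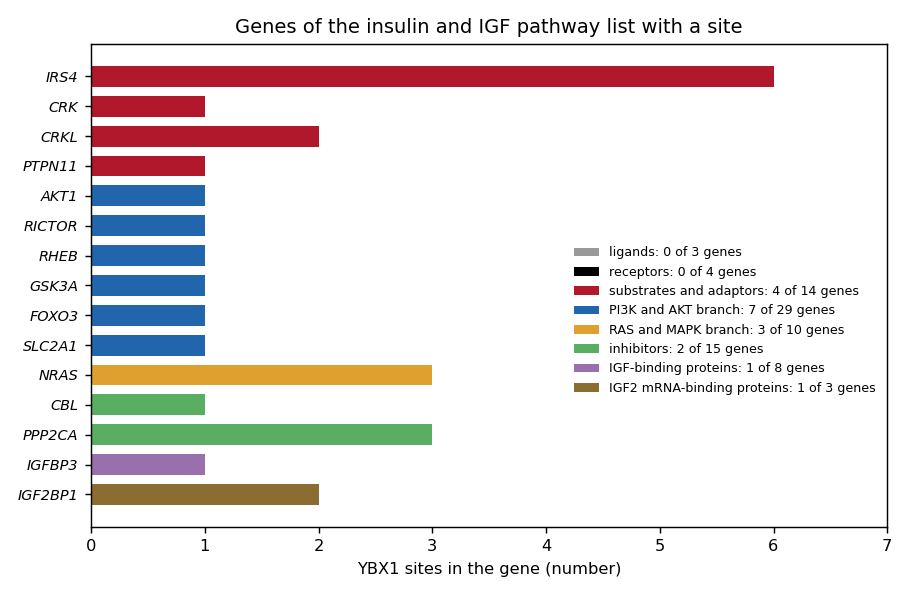
Number of YBX1 sites in 15 of the 18 genes of the insulin and IGF pathway list that had any, coloured by role, with the number of genes with a site of all genes in each role. *IRS4* has 6 sites and the other genes drawn have 1 to 3. Of all protein-coding genes, 6.81% had at least 1 site.

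Sites of CRKL and AKT1 are shown beside those of *IRS4* as examples of the letters found elsewhere in the pathway, with the same marking, and were chosen after their values had been seen.
CRKL, chr22:20951106-20951125, plus strand, 3′UTR: acttaAACTtccttaaaaag
CRKL, chr22:20953471-20953494, plus strand, 3′UTR: tAACTtaaagatcataAACTtcag
AKT1, chr14:104780094-104780114, minus strand, coding sequence: ctcccctCAACAACTtctctg
A and C made up 65.0% and 62.5% of the CRKL sites and 66.7% of the AKT1 site, and each held at least 1 of the tetramers. The *IRS4* coding sites, with 60.0% and 66.7%, held 0 of the tetramers.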

How the data were processed

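Per the methods, adapters and poor ends were removed with cutadapt (version 1.4.1). Alignment to GRCh38 plus an Ensembl transcriptome used PARA-suite. BMix, run with its defaults, turned the alignments into stranded clusters, and HOMER annotated these. The deposited list gives each site's position, strand, gene and class for both replicates pooled, with no read count or score, so depth and replicate error are unknown.

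Members and lists were chosen with earlier results of these data known. Positions were read from base 1, and the last base was taken as 1 before the listed end, where G stood in 85.4% (plus strand) and 90.0% (minus strand) of sites. Reference transcripts were MANE Select or canonical, and stop codons were counted as coding. Sequences were read for sites up to 200 nt wide (2050 of 2054). Pairing was predicted with RNAplfold (version 2.7.2, window of 150 nt, span of 100 nt). The code that places sites in regions was tested on simulated sites. Groups of sites were not compared by a statistical test, since IRS4 was picked for its sites in the same list.

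The text names the 6 genes, the listed pathway genes with a site, the ligands, the 3 genes nearest to IRS4 in exonic sites per kb and 5 tetramers. A few genes under this rule are left out here. Other genes were named after their values were seen. Alternatives were any overlap, strand ignored, exons only, wider or unique sites, merged sites, other annotations and other windows.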

Additional observations from a re-analysis of the deposited data

How the results depend on the processing

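Of 30 alternatives for 6 results, 25 left a number within 1.5 times, or a share, difference or width within the error or SD of the reported value. Some of these could not differ. All sites of the 6 genes were IRS4 sites, so alternatives restricted to IRS4 gave the reported value by construction. For the same reason, the number of sites in the 6 genes and that in IRS4 are 1 result counted 2 times. The count of 25 therefore overstates how stable the results were. When sites of 22 nt (the median) or less were left out, 3 sites were left in the 6 genes and 3 in IRS4 (sites 1 to 3), and 9 genes of the pathway list had a site, against 18 with all sites. The share of all protein-coding genes with a site was 3.66% in that setting, and 33.3% of the IRS4 sites left (1 of 3) lay in the 3′UTR, against 66.7% of all 6, a change within the counting interval. In the authors' annotation the share of IRS4 sites in 3′UTRs was 0%, against 66.7% in GENCODE. When each site was lengthened by 10 nt at both ends, the difference in A and C between sites and windows was 3.57 percentage points for IRS4, against 17.01 with the sites as listed. It was then below that of the other sites (5.89 points), and with the sites as listed above it (12.3 points). A longer stretch takes in bases outside the site. Among A, C and U only, the difference was 6.91 points for IRS4 and 2.97 points for the other sites. With sites whose sequence occurs once, 14 pathway genes were left, and 6.42% of all protein-coding genes. No paired analysis was possible because both replicates were pooled into 1 list, and for the same reason no replicate could be left out.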

Other observations

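Per kb of mature mRNA, IRS4 had 0.914 exonic sites and ranked 26th of the 46 genes with at least 4 (median 0.939, range 0.411 to 13.5). The 3 nearest genes by this measure, over the 1 pooled list, were WASL, an activator of actin branching (0.917 per kb, 3 sites in the 3′UTR and 1 in the coding sequence), TASOR2, a relative of the HUSH subunit TASOR (0.920, 8 sites in the coding sequence), and PAFAH1B2, a subunit of platelet-activating factor acetylhydrolase (0.958, 4 sites in the 3′UTR). Of these, 1 site of WASL and 2 of PAFAH1B2 are not unique in the genome by sequence. In 19 of the 46 genes, IRS4 among them, sites lay in both the 3′UTR and the coding sequence.

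In a structure prediction on the exons, the bases of the IRS4 sites were unpaired with a mean probability of 54.6 ± 10.2% (SD, n = 6 sites, from 43.4% in site 5 to 67.7% in site 1), against 59.2 ± 12.8% for 1607 other sites. The sites were less paired than their windows 100 nt away in 4 of 6 cases, with a mean difference of 5.61 ± 12.6 points, against 11.4 ± 14.96 points over the other sites. Against windows with RNase T1 ends, 0 of 4 IRS4 sites and 342 of 680 other sites were less paired. Of these 4, sites 5 and 6 were set against the same single window (71.5% unpaired). Site 3, with 48.9%, was close to the mean of its windows (50.5%). These values are predictions from sequence, not measurements of RNA structure in the cells.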
